A study of Mus musculus with 6 samples.

Results

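The response of mature microRNAs (miRNAs) to retinoic acid was measured in mouse embryonic stem cells that lack Wt1, by setting the small RNA library of treated knockout cells against that of untreated knockout cells. The miRNAs described are the 239 of 1899 annotated mature entries (12.6%) with a mean of at least 50 uniquely matched reads over these 2 libraries. Both libraries came from 129/Ola cells labelled Wt1 KO and differed, by their labels, in treatment alone. One was untreated, and the other received retinoic acid (RA) at 1 µM, which the labels write as 1 µm. The labels give neither the length of the RA treatment nor the number of knockout clones nor how the gene was disrupted. The wider study profiled 6 libraries, 1 per group. The other 4 were untreated wild-type (WT) 129/Ola cells, WT cells with RA, and Wt1 KO cells induced to express Wt1 with 1 µg/ml doxycycline (dox) for 12 h or 24 h. The culture, on gelatin in medium with serum and LIF, a factor that holds cells in the stem state, names no feeder layer. Wt1 mRNA is not read in small RNA libraries, so the knockout could not be checked here.

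miRNAs are cut from hairpin transcripts, and each hairpin can yield a mature strand from its 5p and its 3p arm. A mature miRNA guides silencing complexes to messenger RNAs mainly through its seed, bases 2 to 8, so miRNAs with a common seed share many predicted targets. In mouse stem cells the miR-290 cluster dominates and supports rapid division, while let-7 and the miRNAs encoded among HOX genes appear as cells differentiate. RA, a vitamin A derivative, binds nuclear receptors that switch on HOX genes and push stem cells out of self-renewal. Wt1, the Wilms tumour gene, encodes a zinc finger protein that regulates transcription and is required for the kidney and gonads to form.

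The mature sequences that the results turn on are given here from RefSeq (GRCm38.p6), 5′ to 3′, with the seed in capitals. The first set holds the miRNAs of the HOX clusters that were higher with RA.
miR-10a-5p: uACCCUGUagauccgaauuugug
miR-10b-5p: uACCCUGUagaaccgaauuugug
miR-615-3p: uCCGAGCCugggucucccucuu
Positions are counted from 1 at the 5′ end of the first-named miRNA. miR-10a-5p and miR-10b-5p differ by the substitution U12A and share their seed. Mature miR-10a-5p lies at chr11:96317186-96317208, miR-10b-5p at chr2:74726074-74726096 in introns of Hoxd3 and Hoxd4, and miR-615-3p at chr15:103014969-103014990 in an intron of Hoxc5, all on the plus strand.

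The miR-181 family is shown because members with the same seed went in opposite directions.
miR-181a-5p: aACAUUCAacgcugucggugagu
miR-181b-5p: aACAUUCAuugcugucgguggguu
miR-181c-5p: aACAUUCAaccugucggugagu
miR-181d-5p: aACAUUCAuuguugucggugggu
miR-181b-5p and miR-181d-5p differ by C12U over 23 shared positions, and the RefSeq entry of miR-181b-5p runs 1 base past the deposited one. miR-181a-5p and miR-181d-5p differ at 4 positions, A9U, C10U, C12U and A21G. miR-181a-5p and miR-181b-5p are each encoded on chromosomes 1 and 2, whereas miR-181c-5p (chr8:84178924-84178945) and miR-181d-5p (chr8:84178759-84178781) lie together on the minus strand in an intron of Nanos3.

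Next are the abundant seed families of stem and dividing cells, from the miR-17 clusters and the miR-290 cluster. miR-92b-3p shares the seed of miR-92a-3p and is listed with the miR-17 clusters, but lies outside them on chromosome 3.
miR-92a-3p: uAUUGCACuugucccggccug
miR-92b-3p: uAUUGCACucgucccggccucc
miR-25-3p: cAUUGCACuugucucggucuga
miR-363-3p: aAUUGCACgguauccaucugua
miR-17-5p: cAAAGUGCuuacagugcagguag
miR-20a-5p: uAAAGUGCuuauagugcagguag
miR-20b-5p: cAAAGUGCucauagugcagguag
miR-106a-5p: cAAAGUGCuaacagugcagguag
miR-93-5p: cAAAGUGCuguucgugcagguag
miR-106b-5p: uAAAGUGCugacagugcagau
miR-295-3p: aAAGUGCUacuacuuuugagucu
miR-294-3p: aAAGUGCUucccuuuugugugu
miR-291a-3p: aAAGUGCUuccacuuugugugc
The seeds of the miR-17 and miR-295 groups overlap, shifted by 1 base. Last are the let-7 members, the miR-125 group and both arms of miR-28a, the hairpin with the largest change in arm use.
let-7a-5p: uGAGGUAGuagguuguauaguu
let-7c-5p: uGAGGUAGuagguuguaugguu
let-7e-5p: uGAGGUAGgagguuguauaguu
miR-125a-5p: uCCCUGAGacccuuuaaccuguga
miR-125b-5p: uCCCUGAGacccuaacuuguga
miR-28a-5p: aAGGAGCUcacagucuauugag
miR-28a-3p: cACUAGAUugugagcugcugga

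Depth was unequal. The untreated library held 1768862 uniquely matched reads and the RA library 83626, a difference of 21.2-fold. Levels are given as normalised CPM, counts brought to a common library size with TMM (trimmed mean of M values) across the 6 libraries. A single read was worth 9.26 normalised CPM with RA and 0.709 untreated, and 3 reads, the limit that a count of 0 allows, were worth 27.8 and 2.13. The members held 99.6% of the untreated reads and 98.6% of the RA reads. Their median count was 443 untreated and 35 with RA, and 51 members had fewer than 10 reads with RA. The mean of unscaled counts is set mostly by the deeper untreated library, so miRNAs that were scarce before RA tended not to become members.

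With 1 library per group there is no replicate and no test. A miRNA was called higher when its log2 ratio (RA over untreated, 0.5 reads added in each library) reached 1, and lower when it reached -1, provided that the 95% counting interval left out 0. Bracketed intervals reflect counting error alone, as PCR reads without molecular identifiers do not stand for separate molecules. Every difference is one between libraries.

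By this rule 46 members were higher with RA (19.2%), 77 were lower (32.2%) and 116 were neither. The 10 members with fewer than 100 untreated reads reached the minimum only through their RA reads, which favoured high ratios among them. Those called higher were miR-615-3p, miR-181b-5p, miR-375-3p, miR-301b-3p, miR-340-5p, miR-872-5p and the entry shared by miR-199b-3p and miR-199a-3p. Of the rest, miR-690 and miR-5122 were neither and miR-323-5p was lower. The median log2 ratio over the 239 was -0.33, with quartiles of -1.36 and 0.61. The members called higher held 2.68% of the untreated reads and 17% of the RA reads, while those called lower went from 63.5% to 27.6%. The 10 most abundant miRNAs took 75.0% of the reads untreated and 61.6% with RA, and 5 of them were the same.

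**Figure D1:**
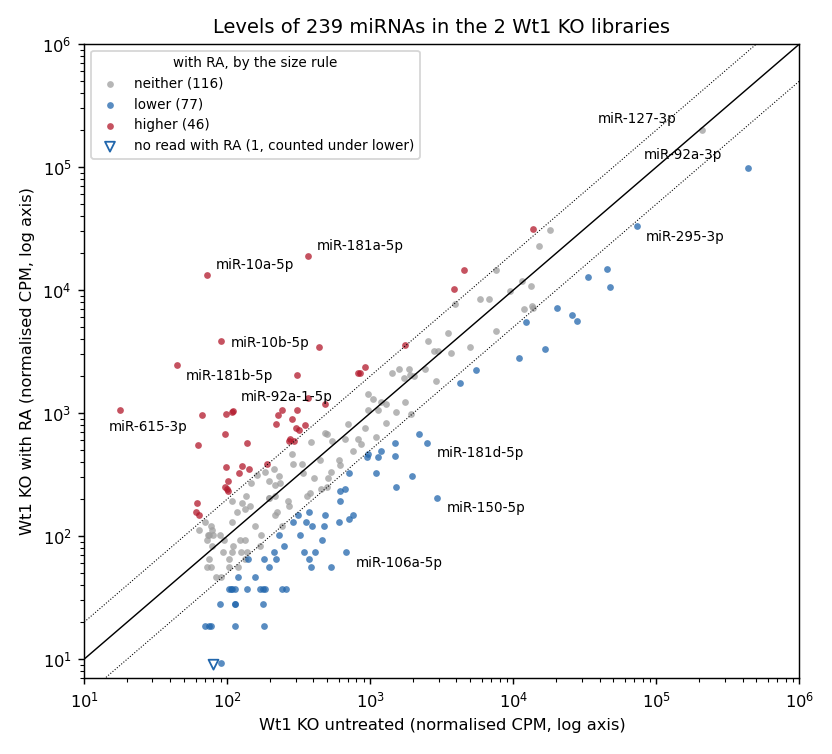
Normalised CPM of the 239 miRNAs in untreated Wt1 KO cells (x axis, log) and Wt1 KO cells with RA (y axis, log), 1 point per miRNA, with the line of equality solid and the lines of 2-fold difference dotted. The HOX cluster miRNAs and miR-181a-5p and miR-181b-5p lie far above the line, miR-92a-3p and miR-295-3p below it, and miR-127-3p near it; the open triangle is the 1 miRNA without a read after RA.

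The balance of higher and lower calls depended on the scaling. As CPM of the total it became 83 higher and 33 lower, and the median of the members moved up by 0.70. The median of ratios gave 53 and 60 (shift 0.17), TMM on these 2 libraries alone 55 and 58 (shift 0.24), and CPM of a total that leaves out both stem cell clusters, miR-290 and miR-302, 75 and 41 (shift 0.57). All 46 miRNAs called higher were called higher under each of these 5 scalings. This was fixed in advance: a change of scaling moves every log2 ratio by the same amount. TMM over the 6 libraries gave the lowest ratios, so no call of higher could be lost under the others. Of the 77 called lower, 33 were lower under all 5.

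**Figure D2:**
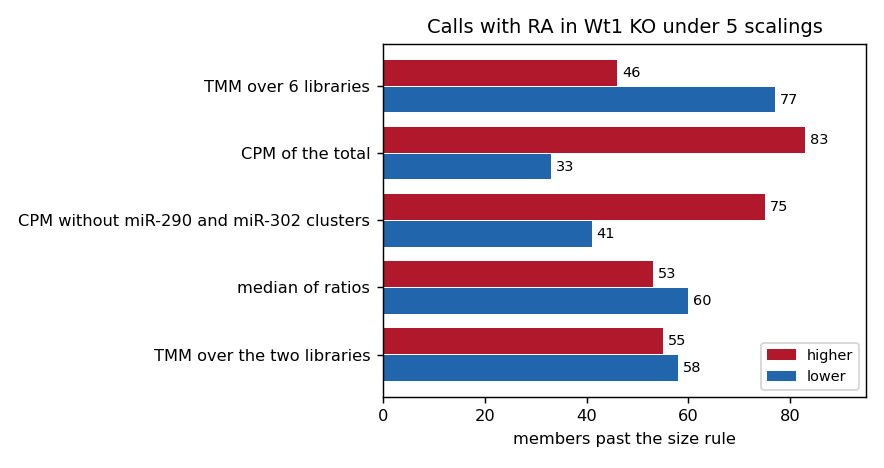
Number of the 239 miRNAs called higher (red) or lower (blue) with RA in Wt1 KO cells under 5 scalings of the same counts. Calls of higher run from 46 to 83 and calls of lower from 33 to 77.

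The 4 libraries without RA (untreated WT, untreated Wt1 KO and both dox times) are not replicates, but they give a range for each miRNA. The level in Wt1 KO with RA lay above all 4 for 72 members (30.1%) and below all 4 for 105 (43.9%). Untreated Wt1 KO, against which the calls were made, is 1 of the 4. Every called member therefore lay on the called side of it by construction. Of the 46 called higher, 38 were above all 4. The 8 exceptions, which include miR-21a-5p, miR-28a-5p, miR-205-5p, miR-429-3p and miR-92a-1-5p, had a higher level in at least 1 library without RA. Of the 77 called lower, 67 were below all 4. For scale, dox for 12 h against untreated Wt1 KO passed the same size rule for 29 of the 239 (12.1%) and dox for 24 h for 20 (8.37%). The median size of the log2 ratio was 0.42 and 0.36 in those comparisons and 1.04 with RA, where shallow counts add to it.

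Of the 4 HOX cluster members 3 were higher, where 19.2% of all members were. miR-10a-5p and miR-615-3p had the highest log2 ratios among the 239. With 25 untreated reads, miR-615-3p was a member only through its RA reads. Its call of higher was thus fixed by the choice of members, and the count of 3 includes it. miR-10a-5p, whose gene lies in the HoxB cluster, had 102 reads untreated (72.3 normalised CPM) and 1443 with RA (13356 normalised CPM), a log2 ratio of 7.52 [7.24 to 7.83]. Its level was 60.6 normalised CPM in untreated WT, 68.0 with dox for 12 h and 82.6 for 24 h, so the 4 libraries without RA lay close together and far below the treated one. miR-10b-5p, its HoxD relative, went from 90.7 to 3832 normalised CPM, with 414 reads after RA, a ratio of 5.4 [5.11 to 5.70]. miR-615-3p, from the HoxC cluster, went from 25 to 115 reads (17.7 to 1064 normalised CPM), a ratio of 5.89 [5.28 to 6.59]. miR-196a-5p, also encoded among HOX genes, was at 0.47 [-0.39 to 1.15] from 165 and 17 reads and passed neither bound. The HOX list of 11 entries, 4 of them members, took 0.0247% of the reads untreated and 2.41% with RA.

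In WT cells, sequenced as separate libraries, miR-10a-5p was at 10.23 with RA, miR-10b-5p at 7.04 and miR-615-3p at 7.15. Treated WT cells thus held 73357 normalised CPM of miR-10a-5p against 13356 in treated knockout cells. The WT library with RA is the deepest of the series and the treated knockout library the shallowest. miR-335-3p had 9325 reads in the former and 8 in the latter, which limits reads of the WT library in the knockout library to at most 12.3% (upper bound of a 95% counting interval). This was the lowest such limit among 168 miRNAs with 1000 or more reads in WT with RA, with no adjustment for that choice. At that limit they would make up 59.5% of the miR-10b-5p reads in treated knockout cells, 57.5% of miR-10a-5p, 56.2% of miR-205-5p and 50.6% of miR-125b-5p. For the other 42 of the 46 miRNAs called higher they would make up under 50%, among them 37.8% for miR-615-3p and 23.3% for miR-181a-5p.

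The miR-181 family, known from the differentiation of blood, muscle and neural cells, split by locus. miR-181a-5p had 514 reads untreated and 2048 with RA (364 and 18956 normalised CPM), a ratio of 5.70 [5.56 to 5.84], and became the seventh most abundant miRNA. miR-181b-5p, encoded beside it, went from 63 to 265 reads (44.6 to 2453 normalised CPM), a ratio of 5.77 [5.38 to 6.2]. Both thus moved by nearly equal amounts. With 63 untreated reads, miR-181b-5p was a member only through its RA reads, so its call of higher was fixed by the choice of members.

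The pair on chromosome 8 did not. miR-181d-5p went from 3536 reads (2506 normalised CPM) to 62 (574 normalised CPM), a ratio of -2.12 [-2.51 to -1.76], and was lower under all 5 scalings. miR-181c-5p went from 2722 to 107 reads, a ratio of -0.96 [-1.25 to -0.68], short of the size rule, and its 3p arm was at 0.36. Summed over the 4 members, the seed ACAUUCA went from 0.386% to 2.97% of the reads, with the a and b forms gaining more than the d form lost.

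Untreated knockout cells started low in the a and b forms, while their miR-181d-5p was above untreated WT (2506 against 1727 normalised CPM). Without treatment miR-181a-5p stood at 5558 normalised CPM in WT and 364 in Wt1 KO. Dox left it at 659 (12 h) and 827 (24 h), and RA brought it to 18956 in Wt1 KO and 42196 in WT. Its ratio with RA in WT was 2.92, and that of miR-181d-5p was 0.03. In the plot of levels across the 6 libraries the a and b forms are low in the 3 knockout libraries without RA, whereas the c and d forms are lowest in the treated knockout library. In WT these were at 2343 and 1727 normalised CPM untreated and at 2327 and 1767 with RA.

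**Figure D3:**
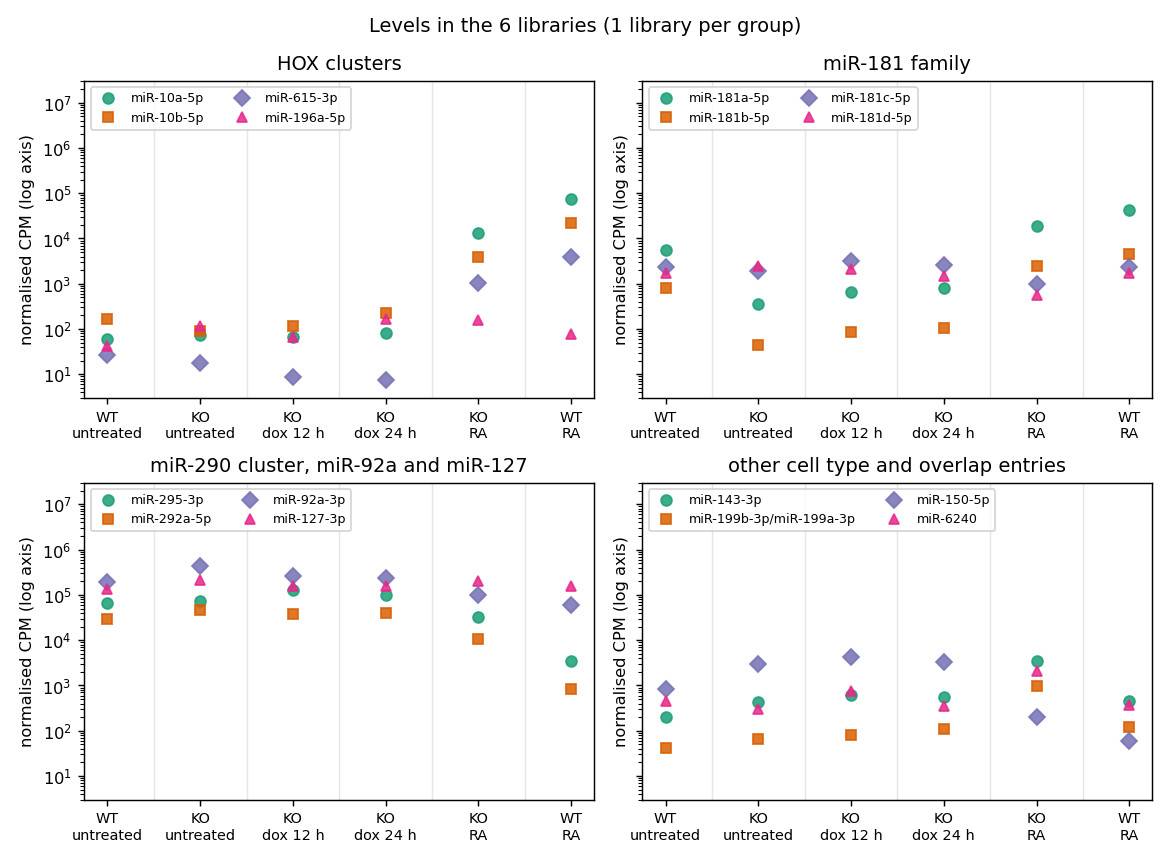
Normalised CPM (log axis) of 16 miRNAs in the 6 libraries, 1 library per group, in 4 panels. HOX cluster miRNAs other than miR-196a-5p and the a and b forms of miR-181 are highest with RA, miR-295-3p and miR-292a-5p lie lower in WT with RA than in Wt1 KO with RA, and miR-143-3p, miR-199b-3p/miR-199a-3p and miR-6240 are highest in Wt1 KO with RA.

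The check on the cell label is the miR-290 cluster, which dominates mouse stem cells. It was abundant before RA and still detected after it. It held 16.8% of the untreated reads and 9.40% of the RA reads, and of its 13 members 10 were lower, where 32.2% of all members were, and none was higher. Its median was -1.52, against -0.33 over all members, and ranged from -0.82 to -1.52 over the 5 scalings, with 5 members lower under each. In WT the same 13 members had a median of -4.47, and the cluster fell to 0.751% of the reads.

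Members of the cluster differed among themselves. miR-292a-3p went from 39095 to 603 reads, a ratio of -2.31 [-2.43 to -2.20], miR-292a-5p was at -2.16 and miR-291a-5p at -2.02. miR-294-3p was at -1.52 and miR-295-3p, the most abundant, at -1.14 [-1.19 to -1.09], from 102465 and 3566 reads. miR-291a-3p, with the same seed as miR-294-3p and miR-295-3p, was at -0.67 and miR-293-5p at 0.15. Taken as a seed family with miR-302d-3p, AAGUGCU went from 7.65% to 5.42% of the reads, whereas the seed CUCAAAC of miR-292a-5p, miR-290a-5p and miR-293-5p went from 3.91% to 1.51%. The miR-302 cluster, known from primed pluripotent cells, had 1 member, miR-302d-3p, with 102 and 64.8 normalised CPM, 7 reads with RA and a ratio of -0.56 [-2.0 to 0.42].

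The miR-17 clusters, which promote proliferation, held 38.2% of the untreated reads and 15.5% of the RA reads. These values and the counts below include miR-92b-3p (1.33% and 0.426%), which is encoded elsewhere, on chromosome 3. Of 20 members 10 were lower and 2 higher, against 32.2% and 19.2% of all members, with a median of -1.23, and 8 were lower under all 5 scalings. miR-92a-3p carried most of this. It went from 621028 reads (35.1%) to 10631 (12.7%), a ratio of -2.16 [-2.19 to -2.13]. It was the most abundant miRNA before RA and second to miR-127-3p after it.

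The paralogous clusters of this group behaved differently. On the X chromosome (chrX:52741697-52742563, GRCm38.p6), all 5 members encoded by miR-106a, miR-18b, miR-20b and miR-363 with 1 genomic match were lower, where 32.2% of all members were. Their median was -2.31. miR-106a-5p went from 960 to 8 reads, a ratio of -3.11 [-4.42 to -2.22], and miR-20b-5p from 1001 to 15, a ratio of -2.31. miR-363-5p had 113 reads untreated and none with RA, at least 2.88-fold lower.

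On chromosome 14 (chr14:115043684-115044459) the miR-17 to miR-92a-1 cluster had 6 such members, with a median of -0.28. Of these 1 was lower and 1 higher, against 32.2% and 19.2% of all members. miR-17-5p was at 0.16 [-0.14 to 0.43] and miR-20a-5p at -0.05 [-0.61 to 0.42]. On chromosome 5, in Mcm7, miR-106b-5p was at 1.16 [0.75 to 1.53], miR-25-3p at 0.04, miR-93-5p at -0.52 and miR-25-5p at -2.54. The seed AAAGUGC, printed above for 6 members, therefore covered ratios from -3.11 to 1.16, and its share of reads was 0.632% untreated and 0.731% with RA. miR-20a-5p and miR-20b-5p differ by U1C and U10C, and their ratios were -0.05 and -2.31. Mature miR-92a-3p is encoded in both the chromosome 14 and the X-linked cluster, and its reads cannot be assigned to either.

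The minor arm miR-92a-1-5p, which comes from chromosome 14 alone, went from 151 to 111 reads, a ratio of 3.26 [2.90 to 3.63]. Without treatment its level was 1408 normalised CPM in WT and 107 in Wt1 KO. It was 4884 with dox for 12 h and 787 for 24 h, and with RA 1027 in Wt1 KO and 920 in WT. The treated knockout library was therefore inside the range of libraries without RA, and the untreated knockout library was the lowest of the 6.

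All 3 let-7 members, which mark maturing cells, were higher, where 19.2% of all members were. let-7c-5p went from 1290 to 254 reads, a ratio of 1.36 [1.16 to 1.56], let-7a-5p from 97.8 to 361 normalised CPM, a ratio of 1.90, and let-7e-5p from 97.1 to 676, a ratio of 2.80 [2.37 to 3.22]. let-7a-5p and let-7e-5p differ by U9G. The seed GAGGUAG went from 0.0885% to 0.438% of the reads.

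let-7e-5p shares a cluster on chromosome 17 (chr17:17830194-17830840) with miR-99b and miR-125a. Its neighbours miR-99b-5p and miR-125a-5p were at 0.06 [-0.03 to 0.14] and 0.32 [0.22 to 0.42], and miR-99b-3p was at 1.44. miR-125b-5p, from chromosomes 9 and 16, went from 139 to 107 reads, a ratio of 3.33 [2.95 to 3.70], close to its ratio of 3.28 in WT. miR-351-5p, with the miR-125 seed, was also higher, from 1166 and 229 reads.

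The imprinted Dlk1-Dio3 locus on chromosome 12 took a larger share of the reads after RA. The anti-Rtl1 group held 19.1% of the untreated reads and 32.2% of the RA reads, of which miR-127-3p alone made 16.7% and 25.6%. On the normalised scale miR-127-3p was nearly level, with a ratio of -0.08 [-0.10 to -0.06] from 295932 and 21416 reads. Of the 13 members in this group 3 were higher and 2 lower, where 19.2% and 32.2% of all members were. miR-136-3p went from 109 to 1037 normalised CPM, a ratio of 3.25 [2.88 to 3.61], miR-431-5p was at 1.41 and miR-434-3p at 1.19, while miR-673-5p was at -1.28 and miR-665-3p at -1.70. The group was drawn by name, and miR-673-5p (chr12:109572004-109572025) lies upstream of the run from miR-337 to miR-136 (chr12:109585818-109595387).

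In the neighbouring group from miR-379 to miR-410, 6 of 35 members were higher and 10 lower, shares near the 19.2% and 32.2% of all members, and the median was 0.09. miR-380-3p was at 2.11 [1.77 to 2.43] and miR-410-3p at 1.69 [1.61 to 1.77]. miR-411-5p, one of the most abundant, was at 0.78. miR-541-5p went from 46734 to 1386 reads, a ratio of -1.37 [-1.45 to -1.29], and miR-409-3p was at -0.93. In WT miR-541-5p was at 0.51. Of the 12 lower calls of both groups, 4 held under the 5 scalings, while the 9 higher calls could not be lost under any of them.

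All 4 members of the miR-183 cluster, best known in sensory organs, were lower, with a median of -1.80, where 32.2% of all members were. miR-182-5p went from 63716 to 1601 reads (-1.61 [-1.68 to -1.54]), miR-183-5p from 15352 to 303 (-1.95) and miR-96-5p from 256 to 2 (-2.97 [-6.35 to -1.43]). Of the 4, 2 were lower under all 5 scalings. miR-182-5p was at -0.02 in WT.

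The 4 members of the epithelial miR-200 family split within a seed. miR-200c-3p went from 361 to 4 reads, a ratio of -2.62 [-4.67 to -1.42], and miR-200b-3p from 2093 to 62, a ratio of -1.36 [-1.76 to -1.01]. miR-429-3p, with the seed AAUACUG like those, was at 1.41 [0.73 to 1.99] from 135 and 27 reads, and miR-200a-3p at 0.56. The list median of -0.40 turned to 0.30 as CPM of the total and to 0.17 without the stem cell clusters. miR-205-5p is an epithelial miRNA outside the lists, named after its values were seen. It went from 317 to 731 normalised CPM, a ratio of 1.21 [0.84 to 1.55]. Its level in untreated WT, 1247 normalised CPM, was above that of the treated knockout library.

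The Sfmbt2 intron group, a long run of related hairpins found in rodents, had 14 of 22 members lower and 1 higher, against 32.2% and 19.2% of all members, with a median of -1.26, but 3 were lower under all 5 scalings. The entry shared by miR-669o-3p and miR-669a-3p went from 2149 to 27 reads, a ratio of -2.58 [-3.21 to -2.06]. miR-467a-5p was the higher one, at 1.03 [0.61 to 1.40]. Near-identical repeats fill this cluster, so unique matching can drop or split reads between its members.

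Both members of the X-linked cluster known from testis were higher, where 19.2% of all members were. miR-470-5p went from 400 to 96 reads (1.65 [1.31 to 1.97]) and miR-871-3p from 491 to 87 (1.22 [0.86 to 1.54]). In WT they were lower, at -2.73 and -2.23. miR-470-5p also stands in the list of miRNAs reported to target pluripotency factors. That list had 1 of 7 members higher and 3 lower, not far from the 19.2% and 32.2% of all members, and the sign of its median, -0.69, depended on the scaling. In the Clcn5 group miR-532-5p was at 1.84 and miR-501-3p at -3.14 [-4.70 to -2.12], from 746 and 6 reads. miR-501-3p was at 45.9 normalised CPM with dox for 12 h and 85.5 for 24 h, close to the 55.5 with RA.

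The families that follow hold 2 to 6 members each, and nothing is read from their shares of calls. None of the 6 miR-30 members passed the size rule, with a median of -0.02, and none of the 3 kidney-enriched members did. Of the miR-15/16 family 1 of 4 was lower, miR-497a-5p at -2.16, while miR-16-5p was at 0.36. In the miR-130 and miR-301 family 1 of 4 was higher, miR-301b-3p at 1.61. Of the miR-23, miR-27 and miR-24 clusters 2 of 5 were lower, miR-23a-3p at -2.13 and miR-24-3p at -1.37. In the p53-responsive miR-34 family miR-34c-5p was at 2.14 [1.82 to 2.45] and miR-34a-5p at -0.76. Among miRNAs made without some of the usual processing steps, miR-320-3p was at -1.26 and miR-484 at -0.49. miR-877-3p was at -1.69 [-5.07 to -0.12] from 105 and 2 reads, and was called neither under each of the other scalings.

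Of the 4 neural members 1 was higher and 1 lower. miR-138-5p was at 2.08 [1.63 to 2.49] from 193 and 62 reads, miR-128-3p at 0.97, miR-9-5p at -0.74 and miR-124-3p, a marker of neurons, at -1.82 [-4.33 to -0.47] from 161 and 3 reads. Markers of other cell types were read beside these results. The muscle and mesoderm list summed to 469 normalised CPM untreated and 3813 with RA, with 15 of its 22 entries without a read in either library, among them miR-1a-3p and miR-206-3p, which define muscle. miR-133a-3p, another muscle miRNA, had too few reads to be a member and went from 12 to 24 reads, a normalised log2 ratio of 4.68 [3.65 to 5.84]. Its 1 member, miR-143-3p, went from 618 to 372 reads, a ratio of 2.98 [2.79 to 3.16].

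The fibroblast and mesenchyme list summed to 16171 and 25713 normalised CPM. Most of both sums was miR-22-3p, with 15082 and 22640 normalised CPM, which was called neither, at 0.59. Of the 6 members 2 were higher, the entry shared by miR-199b-3p and miR-199a-3p at 3.85 [3.44 to 4.27] and miR-21a-5p at 1.81. The rest were called neither, among them miR-31-5p at 0.24, and the lowest ratio in the list was -0.46. The blood and endothelium list summed to 3096 and 491 normalised CPM, with miR-223-3p and miR-451a at 0 in both libraries. Untreated, miR-150-5p made up most of it, and it went from 4144 to 22 reads, a ratio of -3.82 [-4.53 to -3.25], close to -3.79 in WT. The endothelial miR-126a-5p, below the read minimum, went the other way, from 48 to 17 reads, a normalised log2 ratio of 2.24 [1.32 to 3.03]. The endoderm list held 0.0165% and 0.0478% of the reads, with miR-375-3p, a member only through its RA reads, at 1.42. In bulk RNA fewer cells of a type and less RNA per cell cannot be told apart.

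miR-6240, thought to overlap ribosomal RNA and used here to gauge RNA quality, went from 308 to 2055 normalised CPM, a ratio of 2.74 [2.50 to 2.98], against -0.32 in WT. miR-143-3p and the miR-199 entry were, like it, at their highest of the 6 libraries in treated knockout cells. In WT they differed from it and were higher with RA, at 1.14 and 1.55. The part of cell mixture or RNA quality in these results was not tested.

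**Figure D4:**
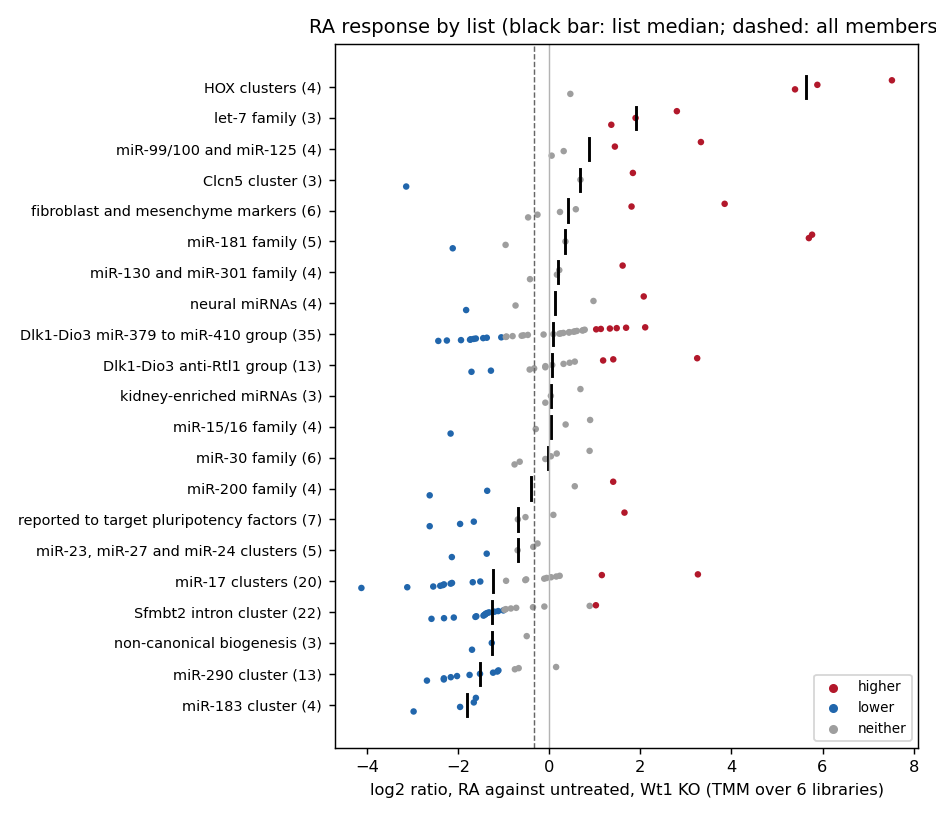
Log2 ratios (RA over untreated, Wt1 KO, TMM scaling) of single miRNAs in the 21 lists with 3 or more members, number of members in parentheses, 1 point per miRNA coloured by the size rule. The black bar is the list's median and the dashed line the median of all 239 members, -0.33; the HOX list lies highest and the miR-183 cluster lowest.

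Arm use does not depend on the scaling, since both arms come from the same library. Both arms were members for 40 hairpins, and the 5p to 3p ratio shifted by the size rule in 14 of them (35.0%), 3 to the 5p arm and 11 to the 3p arm. The 5p share with RA lay outside the range of the 4 libraries without RA for 29 of the 40 (72.5%), and for 11 of the 14. For 35 of the 40 the arm with more reads stayed the same.

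miR-28a, in an intron of Lpp on chromosome 16, had the largest shift. Its 5p arm had 179 reads untreated and 40 with RA, against 14 for the 3p arm with RA, and the 5p share went from 30.4% to 74.1%, a log2 shift of 2.67 [1.75 to 3.73]. The 5p share was 48.6% in untreated WT, 57.9% with dox for 12 h, 45.8% with dox for 24 h, and 54.8% when WT cells received RA. The treated knockout library was the highest of the 6 and the untreated one the lowest. miR-467d went from 78.0% to 91.2% and miR-532 from 73.2% to 86.1%, also toward 5p.

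Toward 3p, miR-329 went from 67.0% to 33.3%, a shift of -1.97 [-3.60 to -0.57] on 21 reads with RA, and stood at 30.8% in WT with RA. miR-25 had a shift of -2.59 [-4.64 to -1.38], miR-409 of -1.5, miR-99b of -1.39 and miR-291a of -1.35 [-1.59 to -1.11]. miR-291a is the best covered of these, with 36070 reads of the 5p arm untreated and 680 with RA, and its 5p share went from 89.8% to 77.6%. In WT its share with RA was 82.4%. For miR-409 and miR-99b the share with RA was inside the range of the libraries without RA.

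**Figure D5:**
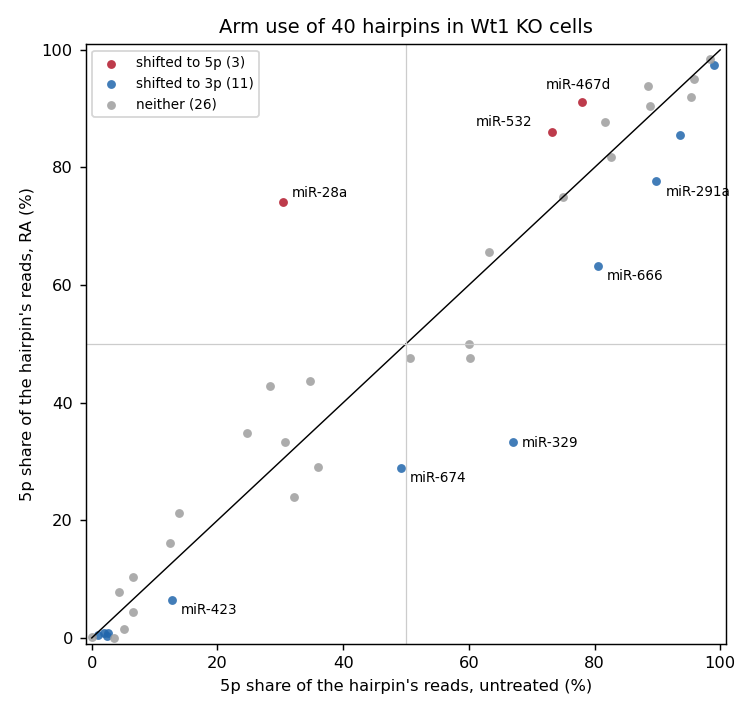
Share of each hairpin's reads that came from the 5p arm (%), untreated (x axis) and with RA (y axis) in Wt1 KO cells, for the 40 hairpins with both arms measured. Points on the line kept their arm use; miR-28a (30.4% to 74.1%) and miR-329 (67.0% to 33.3%) crossed to the other arm.

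Set beside the RA comparison in WT, which used other libraries, 235 of the members also averaged at least 50 reads over the WT libraries and were compared. By the same rule 38 of them were higher with RA in WT (16.2%) and 62 lower (26.4%). Of the 46 higher in Wt1 KO, 21 were higher in WT too, and of 74 lower in Wt1 KO among those compared, 40 were lower in WT too. Across these miRNAs, which are not independent of each other, Pearson's r between the log2 ratios was 0.66 and Spearman's rho 0.61. Of all members, 4 were higher in Wt1 KO and lower in WT, and none the other way round. Whether the responses of the genotypes differ cannot be tested with 1 library per group.

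Near the minimum, the 5 members just inside it were miR-323-5p, miR-690, miR-375-3p, miR-872-5p and miR-155-5p, with ratios from -1.61 to 1.42. The 5 entries just outside it were miR-669f-3p, miR-30e-5p, miR-211-5p, miR-770-3p and miR-496a-3p, with ratios from -2.33 to 1.04. The called members differed little in composition. Median GC content was 45.5% among those higher and 50% among those lower, and the median length was 22 bases in both. The Spearman rho with the log2 ratio was -0.10 for GC content and -0.23 for the untreated level, over 239 miRNAs that share both libraries.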

How the data were processed

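Small RNA of mouse embryonic stem cells was sequenced in 6 libraries, 1 per group. RNA was ligated to adapters and, per the labels' protocols, gel bands of miRNA inserts and of longer small RNAs were taken. The deposited tables give unique-match and multi-match counts per mature miRNA. Unique-match counts were used as the authors deposited them. No source used here names the aligner, the mismatches allowed or the genome build. Coordinates come from the RefSeq table (GRCm38.p6) by name and identical sequence, which 194 of the members had, and host genes from GENCODE. They describe the annotation and not the authors' mapping.

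Samples were grouped by title. The members and lists were chosen with earlier results of these data known. TMM factors over 6 libraries (edgeR 4.0.16, R 4.3.3) were 0.798 for untreated and 1.29 for treated Wt1 KO. Log2 ratios used a prior of 0.5 reads, intervals are exact conditional binomial (Clopper-Pearson, 95%), and no test or p-value is given. Clusters join members within 10 kb. The 28 lists come from textbook families and locus names. Named miRNAs were the 10 higher and 10 lower with the interval bound farthest from 0, up to 4 per list, the 10 most abundant of each library, the 5 hairpins with the largest shift each way, seed families of 3 or more, and 5 entries on each side of the minimum. Others were chosen after their values were seen. Alternatives were other scalings (CPM, DESeq2 1.42.0 median of ratios), minimum counts, priors, and added multi-matches. The calculation was tested on simulated counts with counting error alone, drawn at the library sizes that the ratios used. It therefore could not show scaling error or variation between libraries.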

Additional observations from a re-analysis of the deposited data

Results flagged for a closer look

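4 miRNAs passed the size rule in opposite directions in the RA comparisons of the 2 genotypes, higher in Wt1 KO and lower in WT. With 1 library per group the difference itself was not tested. miR-470-5p was at 1.65 in Wt1 KO and -2.73 in WT, a difference of 4.38 [3.83 to 4.94], and miR-871-3p of the same X-linked cluster at 1.22 and -2.23, a difference of 3.44 [3.0 to 3.89]. miR-21a-5p, an abundant miRNA of fibroblasts and many tumours, was at 1.81 and -1.38, a difference of 3.19 [2.89 to 3.50]. Untreated, it was at 2406 normalised CPM in WT and 305 in Wt1 KO, and with RA at 921 and 1064. miR-467a-5p of the Sfmbt2 intron cluster was at 1.03 and -1.69, a difference of 2.72 [2.30 to 3.13]. Brackets cover counting error only.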

How the results depend on the processing

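The counts of calls depended on the scaling and on the minimum. Among the 239, calls of higher went from 46 to 83 as CPM of the total and 75 as CPM of a total that leaves out the stem cell clusters. They went to 29 when the interval had to lie beyond a log2 ratio of 1. Another minimum changes the set itself. Calls of higher were then 77 of 383 with a minimum mean count of 10, 24 of 135 with a minimum of 200 and 108 of 825 without a minimum. With a mean of at least 50 normalised CPM they were 75 of 273. Calls of lower went from 77 to 33 as CPM of the total, 41 without the stem cell clusters and 38 with the interval beyond 1. With a minimum of 200 they were 47 of 135. Hairpins with shifted arms went from 14 to 7 with a minimum of 200, where 17 were left. No named miRNA turned to the opposite call. The medians of the miR-302, miR-200, miR-30, miR-23/27/24 and pluripotency-targeting lists changed sign with the scaling. Of the named miRNAs under all alternatives, 1105 outcomes kept their call, 42 lost it and 33 gained one. Settings that change only the minimum leave each ratio and interval as it was, so their outcomes could not change. These are 93 (minimum of 10), 65 (minimum of 200), 93 (no minimum) and 92 (mean of at least 50 normalised CPM) of the 1105. No paired analysis was possible because each group holds 1 library, and for the same reason no library could be left out. Scaling the prior to library size was added after seeing the data and gave 46 higher and 79 lower. The RA depth of 83626 reads limits precision: the median interval half-width was 0.53, and miRNAs under 27.8 normalised CPM with RA could not be told from absent.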

Other observations

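Because the minimum rests on unscaled counts, miRNAs that were nearly absent before RA tended not to be among the 239. Of the other entries, 30 had at least 10 reads in the RA library, and 29 of these were higher by the size rule. A miRNA outside the members with that many reads there had to have fewer than 100 untreated reads, so its ratio had to be above 0: the direction is fixed by the choice, and the values below are a description. miR-99a-5p, of the miR-99/100 family, had no read untreated and 39 with RA, at least 170-fold higher, and miR-100-5p had 2 and 16 reads. miR-10a-3p, from the same hairpin as miR-10a-5p, had 0 and 16 reads, at least 69.7-fold higher. Both arms of miR-322, an X-linked miRNA of the miR-15/16 family, were higher, at 3.92 [3.19 to 4.66] for 3p and 3.85 [3.08 to 4.63] for 5p. miR-214-3p, a mesenchymal miRNA, had 0 and 13 reads, at least 56.6-fold higher, and miR-199a-5p had 7 and 13. Of the neural list, miR-218-5p had 8 and 14 reads, a ratio of 4.48 [3.16 to 5.97]. Folds against 0 use 3 reads in the untreated library.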
